A study of Homo sapiens with 12 samples.

Results

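Chromosome segregation needs a set of proteins that are made mostly in the G2 and M phases of the cell cycle, and 48 genes that encode such proteins were followed here in HEK293T cells, a transformed human embryonic kidney line. The genes were listed by name for their part in the kinetochore, the spindle, the spindle checkpoint, anaphase or cytokinesis. No measured value was used in the rule, but earlier results of these data were known when the genes were chosen. All 48 were found among 60660 gene identifiers in the files, and 47 were among the 12830 coding genes with enough reads to be tested. RNA-seq was performed on 12 libraries from cells cultured in DMEM with serum and transfected with siRNA, 2 libraries in each of 6 groups. The siCTL group received control siRNA, and the other 5 groups received siRNA against CARM1, an arginine methyltransferase, or against CHD4, HDAC2, GATAD2A or KDM1A, which are subunits or partners of the NuRD chromatin remodeling and deacetylase complex. All groups were otherwise wild type and shared the same culture medium. The study asked which genes depend on CARM1 and on NuRD, and here that question was put to the mitotic genes alone. The labels do not say that the 2 libraries of a group came from separate cultures, so p-values measure only the spread between these libraries, which may be technical. Each group is 1 siRNA treatment of 1 cell line, and the time from transfection to harvest is not given for these libraries in the sources used here.

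At mitosis the inner kinetochore proteins (the CENP proteins) sit on centromeric chromatin, and the outer kinetochore binds spindle microtubules through the NDC80 complex, the MIS12 complex and KNL1. The spindle checkpoint proteins hold back CDC20, the activator of the anaphase promoting complex, until every kinetochore is attached, after which securin is destroyed, separase cuts cohesin and the sister chromatids part. Many of the genes are kept silent early in the cell cycle by the DREAM complex and switched on later by B-MYB and FOXM1 bound to the MuvB core, which contacts a promoter sequence named the CHR element, often near CCAAT boxes bound by NF-Y. In RNA from a whole culture, a lower level of these genes can come from fewer cells in G2 and M. It can also come from less RNA in each such cell, and the RNA data cannot tell these apart. The study reports, by flow cytometry of HEK293 cells, more cells in G1 after each of these knockdowns.

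The promoter sequences of the genes carried these elements often. RefSeq promoter windows of 300 bases, from 250 before to 50 after an annotated start, were at hand for 37 of the 48 members, in 43 windows on GRCh38.p14. Both strands were searched. The letters of the CHR element were TTTGAA. Those of the NF-Y box were CCAAT, which reads ATTGG when the box lies on the opposite strand. Those of an E2F site were TTCCCGC, with TTGGCGC taken as an alternative form. A CHR element was present in 24 of 43 member windows (55.8%), against 15.2% of all 35116 windows and 10.3% of the 15193 windows of tested genes. An NF-Y box was present in 30 of 43 (69.8%), against 34.6% of all windows. Both together were present in 19 of 43 member windows (44.2%) and in 5.90% of all windows. An E2F site was present in 11 of 43 (25.6%), against 9.23% of all windows and 13.7% of those of tested genes. The letters are matches to short motifs and do not show that a factor was bound.

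Below are 6 windows of genes called in at least 1 knockdown, shown because they hold both motifs, 1 of them or neither, each 5′ to 3′ along its gene, with CHR elements and NF-Y boxes of either strand in capitals. CDC20 (chr1:43358731-43359030, plus strand), ESPL1 (chr12:53268049-53268348, plus strand), SPC25 (chr2:168890381-168890680, minus strand) and MAD2L1 (chr4:120066799-120067098, minus strand) held both motifs, SPC24 (chr19:11155733-11156032, minus strand) held NF-Y boxes and no CHR element, and KIF2C (chr1:44739587-44739886, plus strand) held neither.
CDC20: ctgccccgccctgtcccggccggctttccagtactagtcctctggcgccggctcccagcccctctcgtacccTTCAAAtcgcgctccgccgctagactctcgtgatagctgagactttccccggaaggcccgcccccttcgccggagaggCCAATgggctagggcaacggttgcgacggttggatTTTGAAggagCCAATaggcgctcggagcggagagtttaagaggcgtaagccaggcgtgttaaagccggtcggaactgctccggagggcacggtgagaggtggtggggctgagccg
ESPL1: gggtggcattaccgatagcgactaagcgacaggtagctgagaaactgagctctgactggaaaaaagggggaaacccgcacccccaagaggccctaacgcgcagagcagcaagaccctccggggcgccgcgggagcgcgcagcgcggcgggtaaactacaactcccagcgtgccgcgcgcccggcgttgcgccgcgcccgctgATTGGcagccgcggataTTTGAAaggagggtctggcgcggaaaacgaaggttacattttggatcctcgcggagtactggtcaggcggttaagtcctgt
SPC25: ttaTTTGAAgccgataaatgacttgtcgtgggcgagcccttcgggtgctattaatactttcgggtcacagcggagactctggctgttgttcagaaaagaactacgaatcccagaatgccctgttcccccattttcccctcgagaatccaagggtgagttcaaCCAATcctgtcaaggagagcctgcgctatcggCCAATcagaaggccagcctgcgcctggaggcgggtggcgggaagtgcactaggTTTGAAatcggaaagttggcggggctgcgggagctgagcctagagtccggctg
MAD2L1: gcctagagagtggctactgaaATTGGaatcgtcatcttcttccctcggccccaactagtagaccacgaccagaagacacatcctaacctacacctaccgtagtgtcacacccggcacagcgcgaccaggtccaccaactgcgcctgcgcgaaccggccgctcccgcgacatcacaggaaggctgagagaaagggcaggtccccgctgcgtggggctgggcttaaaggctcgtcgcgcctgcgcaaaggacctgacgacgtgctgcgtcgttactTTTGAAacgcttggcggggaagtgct
SPC24: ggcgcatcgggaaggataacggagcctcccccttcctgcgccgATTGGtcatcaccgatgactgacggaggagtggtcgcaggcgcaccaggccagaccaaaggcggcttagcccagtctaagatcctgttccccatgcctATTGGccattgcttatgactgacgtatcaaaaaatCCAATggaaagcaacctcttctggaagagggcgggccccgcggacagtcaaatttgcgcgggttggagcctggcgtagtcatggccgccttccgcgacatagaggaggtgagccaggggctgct
KIF2C: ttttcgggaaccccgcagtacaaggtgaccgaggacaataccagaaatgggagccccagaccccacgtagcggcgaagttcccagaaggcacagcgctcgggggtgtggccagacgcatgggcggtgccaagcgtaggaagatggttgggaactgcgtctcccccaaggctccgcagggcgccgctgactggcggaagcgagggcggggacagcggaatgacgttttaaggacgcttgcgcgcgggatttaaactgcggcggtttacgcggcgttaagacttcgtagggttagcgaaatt
In the members' windows, 22 of 32 CHR matches and 44 of 66 NF-Y matches lay in the part from 100 bases before the start to the window's end. The median CHR match began 25.5 bases before the start and the median NF-Y match 77 bases before it, with interquartile ranges that overlapped (from 121 to 3 bases and from 108.5 to 53 bases before the start). Windows of the same gene can overlap, and a match in the overlap was counted in each.

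**Figure D1:**
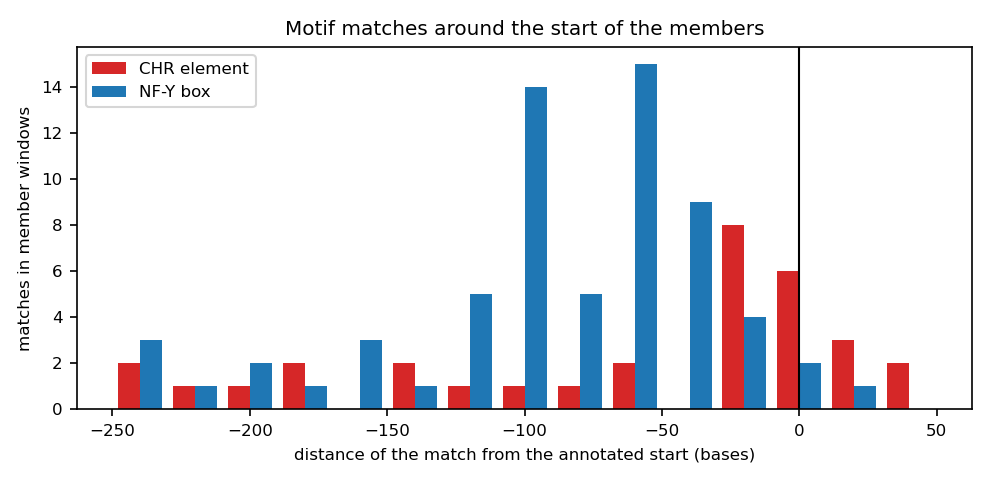
Positions of CHR element and NF-Y box matches in the 43 promoter windows of the members, in bins of 20 bases, by distance in bases from the annotated start (line at 0). The bar height is the number of matches, 32 in all for the CHR element and 66 for the NF-Y box. Of these, 22 CHR and 44 NF-Y matches lie from 100 bases before the start to the end of the window.

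The libraries held 30642632 to 44981503 fragments, of which 19308315 to 28648657 were counted on genes. Marker genes of HEK293 cells were checked, and these do not tell HEK293T from HEK293. The sample titles name HEK293T, while the study's text names HEK293 for this RNA-seq. KRT8 (132 to 210 FPKM, counts scaled for exon length and library total), KRT18 (175 to 255), VIM (46.4 to 137), NEFL (30.9 to 48.4) and LIN28B (8.44 to 16.0) were present in every library, while NEFM and PAX2 stayed under 1 FPKM. Among markers of other lineages PTPRC, CD3E, ALB and ESR1 stayed under 1 FPKM, COL1A1 was at 8.23 to 13.6 FPKM and PECAM1 was not analysed here. Each targeted gene was lower in its own knockdown. The log2 fold changes were -2.37 for CARM1, -2.35 for HDAC2, -1.74 for GATAD2A, -2.59 for KDM1A and -0.54 for CHD4, so counted CHD4 RNA fell least. CHD4 was counted at only 3.11 FPKM in siCTL, under the median of 6.87 over all tested genes. Exon sharing with other genes was not examined for the targeted genes, so the size of the CHD4 fall is uncertain. CHD4 was also lower in siCARM1 (-0.32), and GATAD2A was higher in siCHD4 (1.09).

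The mitotic genes were well expressed in siCTL, with a median of 25.3 FPKM over the 47 tested members against 6.87 over all tested genes. The highest was CDC20 at 119 ± 3.16 FPKM (SD, n = 2), followed by TOP2A, the topoisomerase that untangles sister chromatids, at 114 ± 1.44 and TPX2, which activates Aurora A on the spindle, at 99.3 ± 1.92. CDC20 and TOP2A were within 2 SD of each other, and TPX2 lay below both. Apart from a pair of genes described next, the lowest levels were those of inner kinetochore genes, with CENPC at 4.23 ± 0.0742, CENPK at 5.10 ± 0.378 and CENPN at 6.54 ± 0.543 FPKM. PRC1, a crosslinker of the central spindle, and NUSAP1, a microtubule bundling protein, were listed at 0.390 and 0.373 FPKM. Their low values are uncertain, since 57.6% of the exon bases of PRC1 and 86.8% of those of NUSAP1 are shared on the same strand with other annotated genes, and fragments that fit 2 genes are not counted. PRC1 had 41 to 87 counts in a library and NUSAP1 had 21 to 47, and NUSAP1 was not tested. Every other tested member had at least 232 counts in each library. CENPN (12.6%), BUB1B (10.2%) and CENPA (7.08%) also share some exon bases with a neighbour.

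**Figure D2:**
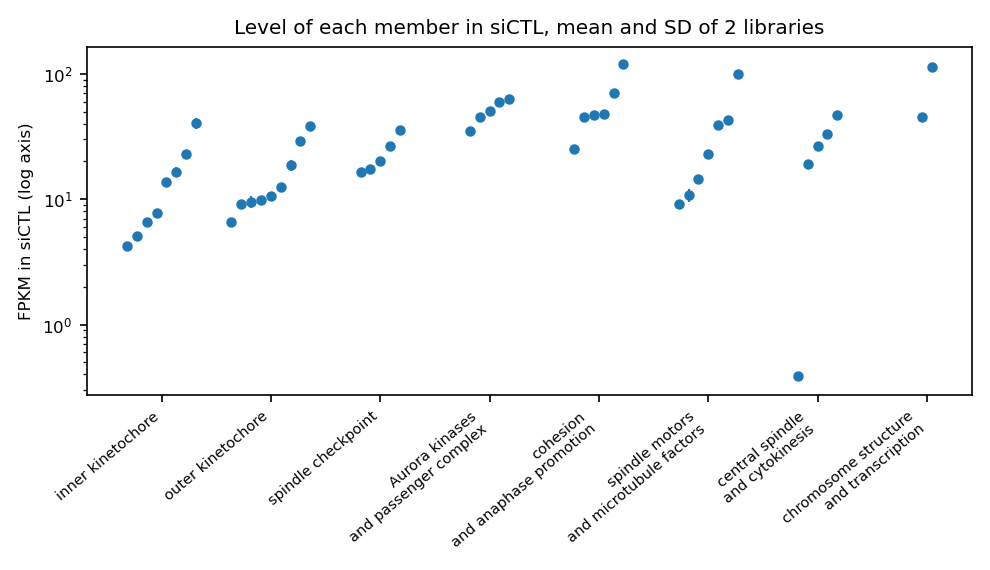
FPKM of each tested member in siCTL on a log axis, grouped by role, as points for the mean and bars for the SD of 2 libraries (most bars are smaller than the point). The members span 4.23 to 119 FPKM apart from PRC1 at 0.390, whose exons are largely shared with another gene.

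The edgeR test set each knockdown against siCTL, and a gene was called at an adjusted p of 0.05 or less over all tested genes together with a fold of at least 1.2. The 5 comparisons share the siCTL libraries, so they are not independent of each other. In siCARM1, 8 of 47 members were lower and 2 higher, where 14.5% of all tested genes were lower and 14.9% higher. In siCHD4, 14 were lower and 3 higher, against a background of 24.9% lower and 24.0% higher. In siHDAC2, 2 were lower and 2 higher, with 9.00% and 10.6% of all genes. In siGATAD2A, 4 were lower and 4 higher, with 18.2% and 15.7% of all genes. In siKDM1A, 4 were lower and 3 higher, with 11.5% and 14.2% of all genes. The lower members thus came to 17.0% in siCARM1 and 29.8% in siCHD4, near the background share in each, and to 4.26% in siHDAC2, 8.51% in siGATAD2A and 8.51% in siKDM1A, under it. The higher members came to 4.26%, 6.38%, 4.26%, 8.51% and 6.38% in the order above, under the background share of each comparison. Single libraries moved the smaller counts. The higher members of siCARM1 were 4 without siCARM1 replicate 1 and 1 without siCARM1 replicate 2, and those of siKDM1A were 1 without siCTL replicate 2 or siKDM1A replicate 2. In siHDAC2 the lower members were 1 without siCTL replicate 1 or siHDAC2 replicate 1, and the higher ones were 5 without siCTL replicate 1 and 1 without siCTL replicate 2 or siHDAC2 replicate 1.

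The counts without the fold minimum were larger. In siCARM1, 20 of 47 were lower and 6 higher at an adjusted p of 0.05 or less (23.1% and 23.6% of all genes). In siCHD4 the counts were 23 and 7 (32.5% and 33.2%), in siHDAC2 6 and 7 (17.6% and 17.8%), in siGATAD2A 18 and 8 (26.0% and 25.5%) and in siKDM1A 14 and 4 (20.4% and 21.9%). Lower members therefore made up 42.6%, 48.9%, 12.8%, 38.3% and 29.8% of the tested members. These were above the share of all genes in siCARM1, siCHD4, siGATAD2A and siKDM1A and under it in siHDAC2. Higher members made up 12.8%, 14.9%, 14.9%, 17.0% and 8.51% in the same order, under the share of all genes in each. The members had a higher median level than all tested genes, and smaller changes can pass the adjusted p at higher counts. Genes of like level were not set apart, and whether the shares of lower or higher members go with level was not tested.

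The changes were small. The median log2 fold change of the members in siCARM1 was -0.11. It was -0.10 in siCHD4 and 0.02 in siHDAC2, and siGATAD2A and siKDM1A had -0.08 and -0.06, while the median over all tested genes lay between -0.00 and 0.01. The siCARM1 median was -0.052 without siCARM1 replicate 1 and -0.16 without siCARM1 replicate 2, and that of siKDM1A was -0.095 without siKDM1A replicate 2. The siHDAC2 median turned negative without siHDAC2 replicate 1 (-0.011), siCTL replicate 1 (-0.0067) or siCTL replicate 2 (-0.00091). The estimates were negative for 32, 34, 20, 30 and 35 of 47 members. No member changed by more than 2-fold in any comparison, where 1.63% (siHDAC2) to 9.15% (siCHD4) of all tested genes did. The SD of the members' log2 fold changes was 0.157 to 0.243 against 0.332 to 0.737 for all genes. The members had a higher median level in siCTL than all tested genes (25.3 against 6.87 FPKM). Genes of like level were not set apart, and whether the smaller spread goes with level was not tested. The summed level of the tested members was 6354 and 6312 CPM (counts scaled to the same library total) in siCTL, 5709 and 5843 in siCARM1, 6048 and 6057 in siCHD4, 6399 and 6288 in siHDAC2, 6056 and 6126 in siGATAD2A, and 5963 and 6030 in siKDM1A. The sum was lowest in the siCARM1 libraries, and only the siHDAC2 libraries overlapped the siCTL ones.

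**Figure D3:**
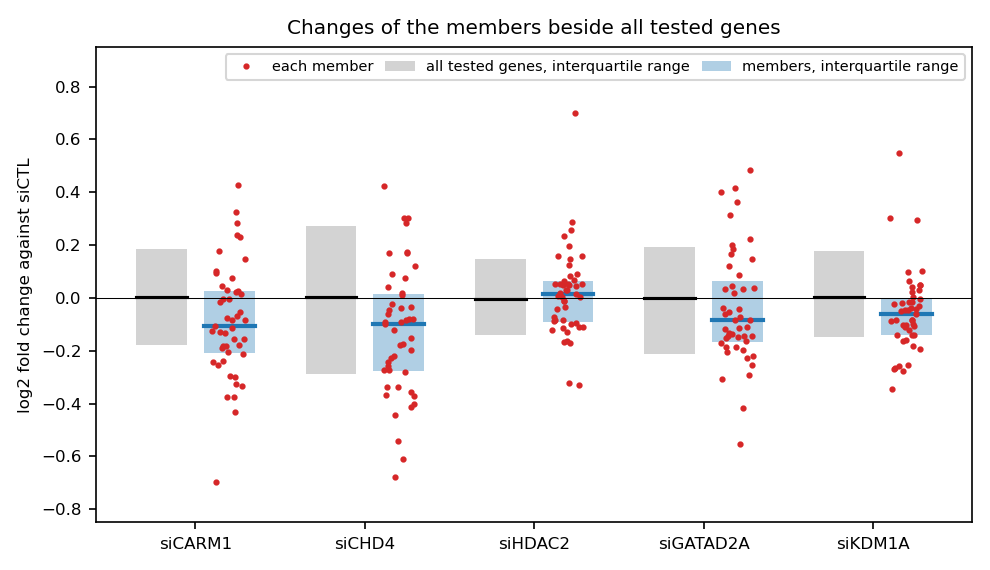
Log2 fold changes against siCTL in each of 5 knockdowns, with the interquartile range (box) and median (line) of all 12830 tested genes in grey and of the 47 tested members in blue, and each member as a point. The members' medians lie between -0.11 and 0.02, and every point is within 2-fold.

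The knockdowns were also compared with each other without siCTL, by a joint test of the 5 knockdown groups with the largest difference between any of them at 1.2-fold or more. By that test 28 of 47 members (59.6%) differed among the knockdowns, against 77.6% of all tested genes. The median difference between a member's highest and lowest knockdown was 0.320 on the log2 scale, against 0.479 for all tested genes. Here too, genes of like level were not set apart. The widest differences among the members were those of ESPL1 (0.867), NEDD1 (0.799), KIF2C (0.726), CDCA5 (0.687) and SPC24 (0.682).

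**Figure D4:**
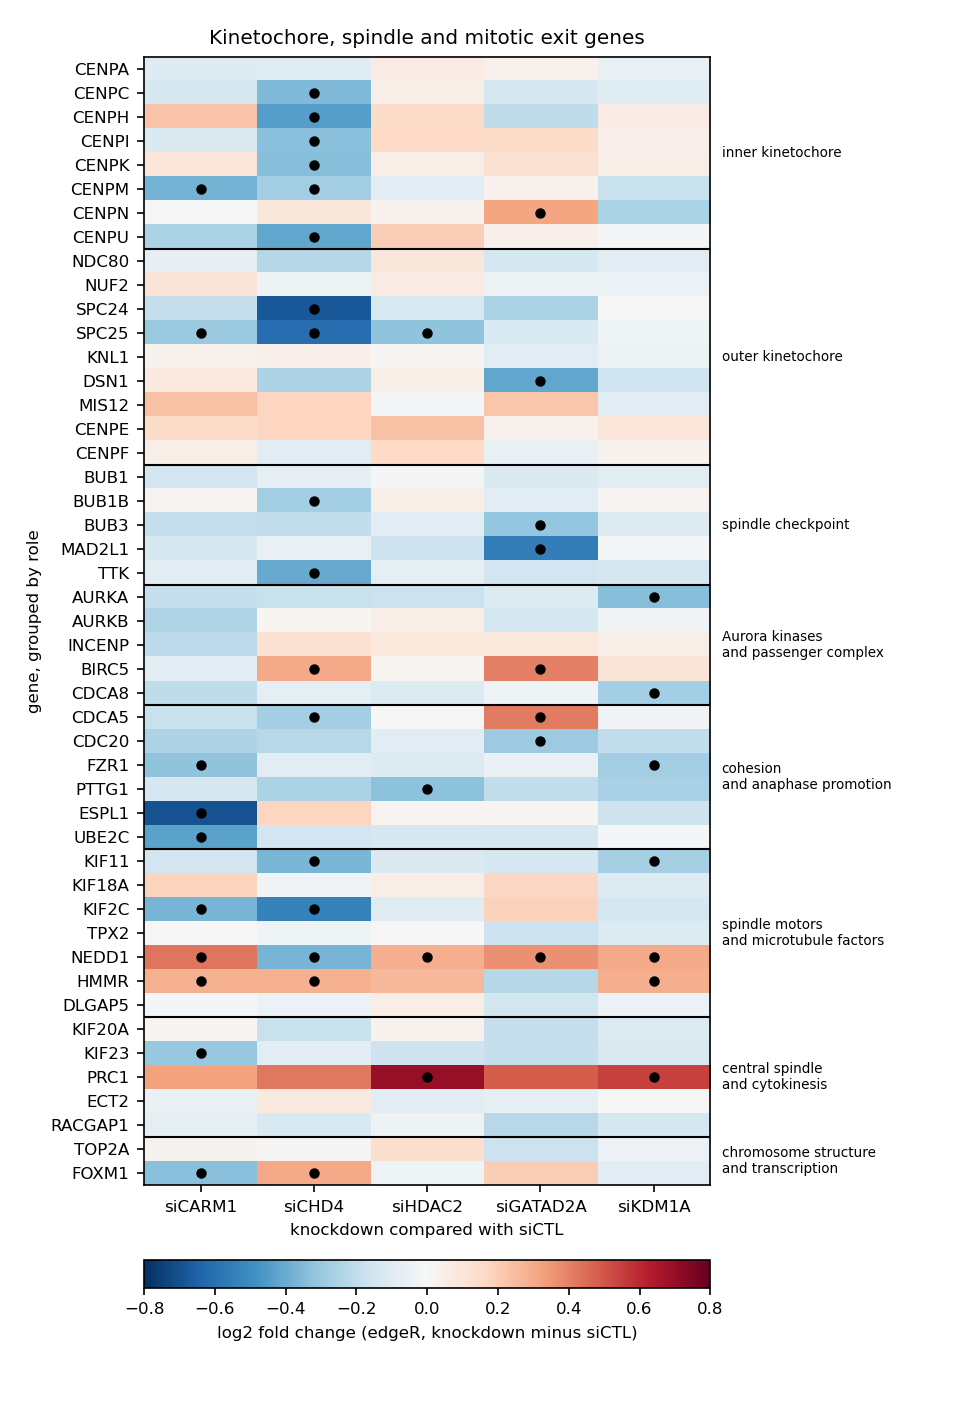
Log2 fold change (edgeR, knockdown minus siCTL) of each of the 47 tested members, grouped by role, in 5 knockdowns, as colour from blue (lower) to red (higher). A black dot marks an adjusted p of 0.05 or less with a fold of at least 1.2, and the inner kinetochore genes carry 6 dots in the siCHD4 column.

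Among the inner kinetochore genes of the member list the calls lay mostly in siCHD4. A wider list of other kinetochore and centromere genes, inner and outer, had 4 of 27 lower and 2 higher there. Of the 8 inner kinetochore members, 6 were lower in siCHD4 (CENPC, CENPH, CENPI, CENPK, CENPM and CENPU), where 24.9% of all tested genes were lower. Their median log2 fold change over all 8 was -0.34. The medians of the same 8 genes in siCARM1 and siHDAC2 were -0.11 and 0.06, and they were 0.04 in siGATAD2A and -0.04 in siKDM1A. CENPA, the histone H3 variant that marks the centromere, had -0.10 in siCHD4 and was not called in any comparison.

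CENPH, CENPI, CENPK and CENPU belong to the CCAN, the group of proteins that stays on the centromere throughout the cell cycle, and CENPC links it to the MIS12 complex. CENPU was at 83.5 and 75.8 CPM in siCTL and at 57.3 and 62.1 in siCHD4, a log2 fold change of -0.41 (SE 0.061, adjusted p 6.98e-07). CENPH was at 28.4 and 32.2 CPM in siCTL and at 21.2 and 23.4 in siCHD4, a log2 fold change of -0.44 (SE 0.086, adjusted p 4.45e-05). Neither gene's libraries overlapped between siCTL and siCHD4. The other changes in siCHD4 were -0.35 for CENPC, -0.34 for CENPI and -0.34 for CENPK (adjusted p 8.77e-05, 0.000101 and 0.00375), and the CENPK change was -0.26 (adjusted p 0.0743) without siCTL replicate 2. CENPC, CENPH, CENPI, CENPK and CENPU were each lower in siCHD4 than in each of the other 4 knockdowns, with a largest adjusted p over genes and pairs of 0.0289 (CENPU, siCHD4 against siCARM1).

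CENPM, a CCAN protein with a fold like that of small GTPases, was at 65.4 and 75.8 CPM in siCTL. It was at 55.7 and 53.2 CPM in siCARM1 (-0.38, SE 0.063, adjusted p 1.29e-05) and at 58.3 and 58.3 in siCHD4 (-0.28, SE 0.063, adjusted p 0.000285), and it was at 65.7 and 67.9 in siHDAC2, 71.0 and 73.7 in siGATAD2A and 64.9 and 60 in siKDM1A. All of the siCARM1 and siCHD4 values were under both siCTL values, and without siCTL replicate 2 the change in siCHD4 was -0.17 and was no longer called. The difference between siCARM1 and siCHD4 was -0.10 (SE 0.064, adjusted p 0.208). CENPN, which reads the CENPA nucleosome, rose in siGATAD2A (0.32, SE 0.071, adjusted p 0.000391), where it was at 45.5 and 46.7 CPM against 39.3 and 35 in siCTL, and without siCTL replicate 2 that change was 0.23, under the fold minimum.

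In the outer kinetochore, the pair SPC24 and SPC25 fell in siCHD4 while their partners in the NDC80 complex were not called. SPC24 and SPC25 form the end of the complex that docks on the inner kinetochore, and NDC80 and NUF2 form the end that grips the microtubule. SPC24 (chr19:11242196-11266483 on GRCh37, minus strand) was at 109 and 109 CPM in siCTL, 98.3 and 93.8 in siCARM1, 66.3 and 69.9 in siCHD4, 98.3 and 102 in siHDAC2, 89.9 and 93.0 in siGATAD2A and 111 and 108 in siKDM1A. The siCHD4 libraries were under all others, with a log2 fold change of -0.68 (SE 0.052, adjusted p 9.28e-13). The nearest other knockdown, siGATAD2A, was higher than siCHD4 by 0.42 on the log2 scale (siCHD4 minus siGATAD2A -0.42, SE 0.052, adjusted p 3.98e-08).

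SPC25 (chr2:169690642-169769881 on GRCh37, minus strand) was at 18.8 and 16.0 CPM in siCTL and at 10.2 and 12.4 in siCHD4, a log2 fold change of -0.61 (SE 0.111, adjusted p 1.78e-05). It was at 14.2 and 14.0 CPM in siCARM1 (-0.30, adjusted p 0.0235) and at 13.2 and 14.4 in siHDAC2 (-0.32, adjusted p 0.0204). The siCHD4, siCARM1 and siHDAC2 values were all under siCTL, while siGATAD2A (15.2 and 16.7 CPM) and siKDM1A (16.4 and 17.4 CPM) overlapped it. However, the siCTL libraries of this gene were themselves far apart, and without siCTL replicate 1 the changes were -0.18 (adjusted p 0.272) in siCARM1 and -0.21 (adjusted p 0.246) in siHDAC2. The siCARM1 call also ended without either siCARM1 library (adjusted p 0.0622 and 0.0654), and the siHDAC2 call without siHDAC2 replicate 1 (adjusted p 0.123). In siCHD4 the log2 fold changes of NDC80 and NUF2 were -0.23 (adjusted p 0.00602, under the fold minimum) and -0.04 (adjusted p 0.657).

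DSN1, a subunit of the MIS12 complex, fell in siGATAD2A. It was at 82.3 and 78.4 CPM in siCTL and at 61.2 and 58.8 in siGATAD2A (-0.42, SE 0.054, adjusted p 1.08e-07), without overlap. It was at 67.7 and 67.9 CPM in siCHD4 (-0.24, adjusted p 0.00019), under the fold minimum, 83.2 and 86.2 in siCARM1, 82.3 and 83.4 in siHDAC2 and 71.3 and 72.3 in siKDM1A. MIS12 of the same complex was at 0.22 in siGATAD2A (adjusted p 0.0127), also under the fold minimum. KNL1, the scaffold for the checkpoint kinase BUB1, CENPE, a kinesin of the kinetochore, and CENPF were not called in any comparison, and their log2 fold changes lay between -0.09 and 0.24.

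Of the 5 spindle checkpoint genes, 2 were lower in siCHD4 and 2 in siGATAD2A, where 24.9% and 18.2% of all tested genes were lower, and none was called in the other knockdowns. MAD2L1 encodes MAD2, the protein that captures CDC20. MAD2L1 (chr4:120976778-120988013 on GRCh37, minus strand) was at 145 and 148 CPM in siCTL, 128 and 140 in siCARM1, 134 and 146 in siCHD4, 134 and 127 in siHDAC2, 97.7 and 102 in siGATAD2A and 142 and 147 in siKDM1A. The siGATAD2A libraries were under all others (-0.55, SE 0.053, adjusted p 2.98e-10). The next lowest group, siHDAC2, exceeded siGATAD2A by 0.39 (SE 0.053, adjusted p 2.57e-07).

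BUB3, which brings BUB1 and BUBR1 to the kinetochore, was at 285 and 295 CPM in siCTL and at 229 and 240 in siGATAD2A (-0.31, SE 0.044, adjusted p 7.26e-07). It was at 244 and 264 CPM in siCARM1 and at 256 and 250 in siCHD4, with log2 fold changes of -0.19 and -0.20, under the fold minimum, and at 281 and 266 in siHDAC2 and 266 and 274 in siKDM1A. The checkpoint kinase TTK (MPS1) fell in siCHD4 from 81.9 and 78.8 CPM to 61.1 and 60.6 (-0.40, SE 0.064, adjusted p 2.45e-06). BUB1B, which encodes BUBR1, was at -0.27 in siCHD4 (SE 0.057, adjusted p 0.00011) and at -0.22, under the fold minimum, without siCTL replicate 1. TTK and BUB1B were each lower in siCHD4 than in each of the other 4 knockdowns, with a largest adjusted p over genes and pairs of 0.00615. BUB1 was not called in any comparison.

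Of the 5 genes of the Aurora kinases and the chromosomal passenger complex, 1 was called higher in siCHD4, 1 higher in siGATAD2A and 2 lower in siKDM1A, where 24.0% and 15.7% of all tested genes were higher and 11.5% lower. In siCARM1 none was called, all 5 estimates were negative with a median of -0.21, and 4 passed the adjusted p alone. The complex holds the kinase AURKB with INCENP, survivin (BIRC5) and borealin (CDCA8), and corrects faulty attachments. BIRC5 was at 238 and 246 CPM in siCTL, 229 and 229 in siCARM1, 299 and 298 in siCHD4, 243 and 246 in siHDAC2, 320 and 319 in siGATAD2A and 266 and 254 in siKDM1A. It rose in siCHD4 (0.30, SE 0.040, adjusted p 7.48e-08) and in siGATAD2A (0.40, SE 0.040, adjusted p 6.37e-10), with no overlap with siCTL. CDCA8 fell in siKDM1A from 85.8 and 82.1 CPM to 71.8 and 67.3 (-0.27, SE 0.056, adjusted p 0.000208), a change that dropped under the fold minimum without siCTL replicate 1 (-0.24) or siKDM1A replicate 2 (-0.22). CDCA8 was at 72.0 and 73.6 CPM in siCARM1 (-0.21, adjusted p 0.00283, under the fold minimum), and between 74.8 and 81.8 in siCHD4, siHDAC2 and siGATAD2A. AURKB and INCENP were not called, with their lowest values in siCARM1 (-0.24 and -0.21, adjusted p 0.00021 and 0.00031).

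AURKA, the spindle pole kinase, fell in siKDM1A. It was at 136 and 129 CPM in siCTL and at 102 and 106 in siKDM1A (-0.34, SE 0.048, adjusted p 8.6e-07). It was at 116 and 117 CPM in siCARM1, 117 and 116 in siCHD4, 119 and 116 in siHDAC2 and 121 and 124 in siGATAD2A, with log2 fold changes of -0.18, -0.18, -0.17 and -0.11, under the fold minimum. The siKDM1A level was lower than that of each other knockdown, with a largest adjusted p over genes and pairs of 0.00532 (against siCARM1).

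Genes of cohesion and anaphase promotion held the largest fall of any member, that of ESPL1 in siCARM1. In that knockdown 3 of the 6 genes were lower, where 14.5% of all tested genes were, and all 6 estimates were negative, with a median of -0.28. ESPL1 encodes separase, the protease that cuts cohesin at anaphase. ESPL1 (chr12:53662083-53687422 on GRCh37, plus strand) was at 406 and 426 CPM in siCTL, 260 and 253 in siCARM1, 462 and 474 in siCHD4, 414 and 430 in siHDAC2, 423 and 419 in siGATAD2A and 380 and 363 in siKDM1A. The siCARM1 libraries were under all others (-0.70, SE 0.040, adjusted p 4.85e-15). The difference from the next lowest group, siKDM1A, was -0.53 (SE 0.040, adjusted p 1.15e-12). In siCHD4 ESPL1 was at 0.17 (adjusted p 0.000343), under the fold minimum.

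UBE2C, the E2 enzyme of the anaphase promoting complex, was at 90.7 and 88.9 CPM in siCTL and at 67.2 and 65.9 in siCARM1 (-0.43, SE 0.052, adjusted p 5.29e-08). It was at 79.9 and 81.5 CPM in siCHD4, 81.9 and 82.2 in siHDAC2, 81.1 and 82.8 in siGATAD2A and 91.1 and 86.5 in siKDM1A, above both siCARM1 libraries. FZR1 encodes CDH1, the activator of that complex after anaphase, and was at 159 and 169 CPM in siCTL. It fell to 136 and 126 in siCARM1 (-0.32, SE 0.055, adjusted p 1.46e-05) and to 140 and 130 in siKDM1A (-0.28, SE 0.055, adjusted p 0.000139). It was at 158 and 150 in siCHD4, 142 and 161 in siHDAC2 and 160 and 156 in siGATAD2A. The siKDM1A change dropped under the fold minimum without siCTL replicate 2 (-0.23) or siKDM1A replicate 2 (-0.23).

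CDC20 and PTTG1, the activator and the securin at anaphase onset, each had 1 call. CDC20 was at 236 and 245 CPM in siCTL and at 196 and 196 in siGATAD2A (-0.29, SE 0.042, adjusted p 8.04e-07). In siCARM1, siCHD4 and siKDM1A it was at -0.24, -0.22 and -0.19 with adjusted p-values of 1.71e-05, 3.64e-05 and 0.00037, all under the fold minimum. PTTG1 was at 90.6 and 89.8 CPM in siCTL and at 70.0 and 73.4 in siHDAC2 (-0.33, SE 0.057, adjusted p 4.01e-05). It was at 81.0 and 83.4 CPM in siCARM1, 74.9 and 76.2 in siCHD4, 78.0 and 79.2 in siGATAD2A and 70.3 and 80.6 in siKDM1A, all under siCTL. Its difference between siHDAC2 and siKDM1A did not pass the test (-0.07, SE 0.058, adjusted p 0.304).

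CDCA5 encodes sororin, which protects cohesin until anaphase, and was called in opposite directions. CDCA5 (chr11:64833772-64851636 on GRCh37, minus strand) was at 180 and 194 CPM in siCTL, 158 and 173 in siCARM1, 154 and 156 in siCHD4, 187 and 188 in siHDAC2, 248 and 251 in siGATAD2A and 192 and 177 in siKDM1A. The siGATAD2A libraries were above all others (0.41, SE 0.048, adjusted p 1.73e-08), and the siCHD4 libraries were the lowest (-0.27, SE 0.049, adjusted p 1.66e-05). Without siCTL replicate 2 the siCHD4 change was -0.22, under the fold minimum.

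**Figure D5:**
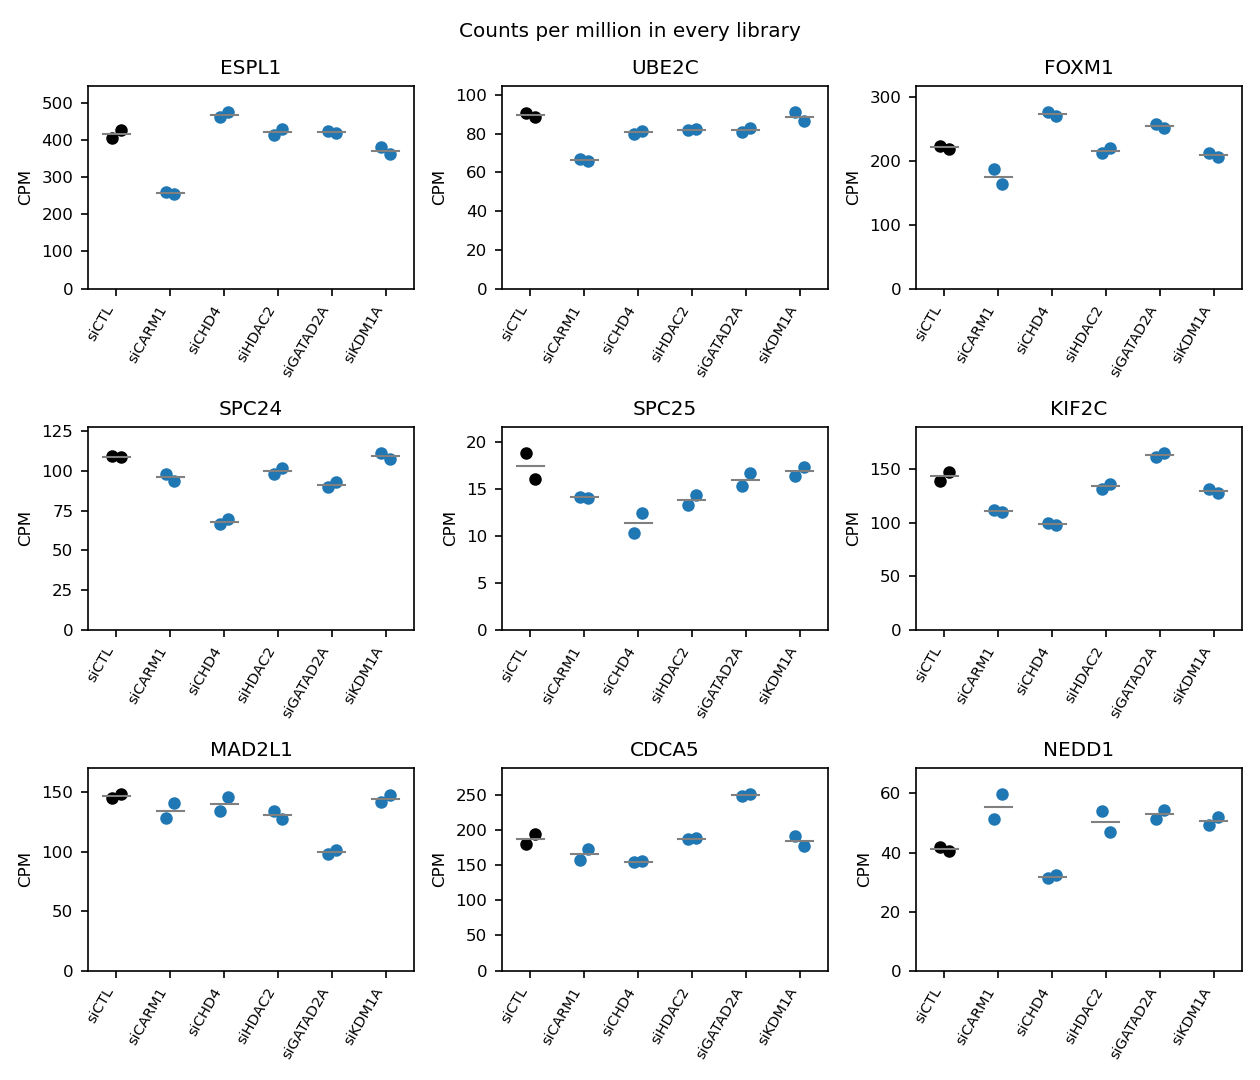
CPM (on an axis from 0) of 9 members in each of the 12 libraries, with siCTL in black, knockdowns in blue and a grey line at the mean of each group. ESPL1 and UBE2C are lowest in siCARM1, SPC24 and KIF2C in siCHD4 and MAD2L1 in siGATAD2A, while NEDD1 is under siCTL in siCHD4 and above it in the other knockdowns.

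Among the spindle motors and microtubule factors, KIF2C and KIF11 fell in a pair of knockdowns each, NEDD1 was called in both directions and HMMR was called higher. KIF2C is a kinesin that takes tubulin off microtubule ends at the kinetochore. KIF2C was at 139 and 147 CPM in siCTL, 111 and 110 in siCARM1, 99.7 and 97.3 in siCHD4, 132 and 136 in siHDAC2, 161 and 165 in siGATAD2A and 132 and 128 in siKDM1A. It fell in siCARM1 (-0.37, SE 0.047, adjusted p 1.14e-07) and in siCHD4 (-0.54, SE 0.048, adjusted p 2.32e-11), and siCHD4 was lower than each other knockdown, with a largest adjusted p over genes and pairs of 0.00425. In siGATAD2A it was at 0.19 (adjusted p 0.0011), under the fold minimum, with both libraries above siCTL.

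KIF11 encodes Eg5, the motor that pushes the spindle poles apart. It was at 235 and 218 CPM in siCTL and fell to 175 and 176 in siCHD4 (-0.37, SE 0.046, adjusted p 4.06e-08) and to 183 and 193 in siKDM1A (-0.27, SE 0.046, adjusted p 2.43e-05). It was at 197 and 209 in siCARM1, 214 and 204 in siHDAC2 and 206 and 204 in siGATAD2A, also under siCTL. The siKDM1A change dropped just under the fold minimum without siCTL replicate 1 (-0.21) or siKDM1A replicate 1 (-0.23), and with a stricter filter on low genes (-0.26). TPX2, KIF18A and DLGAP5, which organise and dampen spindle microtubules, were not called in any comparison.

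NEDD1 recruits the gamma-tubulin ring complex to centrosomes and spindles, and it was called in each of the 5 comparisons, which share siCTL. NEDD1 (chr12:97301002-97347558 on GRCh37, plus strand) was at 41.8 and 40.5 CPM in siCTL, 51.3 and 59.7 in siCARM1, 31.3 and 32.3 in siCHD4, 54.1 and 46.9 in siHDAC2, 51.5 and 54.4 in siGATAD2A and 49.4 and 52.0 in siKDM1A. It fell in siCHD4 (-0.37, SE 0.078, adjusted p 0.000123). It rose by 0.43 in siCARM1 (adjusted p 1.69e-05), 0.29 in siHDAC2 (0.00284), 0.36 in siGATAD2A (0.000119) and 0.30 in siKDM1A (0.00138). No library of a knockdown overlapped siCTL, and without siHDAC2 replicate 1 the change in siHDAC2 was 0.19 (adjusted p 0.104).

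HMMR, a microtubule protein of the spindle poles, was higher in siCARM1 (0.29, adjusted p 0.00351), siCHD4 (0.28, adjusted p 0.0023) and siKDM1A (0.29, adjusted p 0.00319). Its siCTL libraries were at 45.9 and 39.1 CPM, against 48.4 and 55.1 in siCARM1, 51.3 and 51.8 in siCHD4, 49.8 and 51.3 in siHDAC2 and 47.5 and 56.2 in siKDM1A. The groups did not overlap, but without siCTL replicate 2 the changes were 0.17, 0.16 and 0.18 (adjusted p 0.167, 0.132 and 0.156), so these calls rest on that library. The siCARM1 call also ended without siCARM1 replicate 2 (adjusted p 0.0714) and the siKDM1A call without siKDM1A replicate 2 (adjusted p 0.162). In siGATAD2A, HMMR was at -0.23 (adjusted p 0.0214), under the fold minimum, and the 35 and 37.5 CPM there lay under siCTL.

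Of the 5 central spindle and cytokinesis genes, 1 was lower in siCARM1, where 14.5% of all tested genes were lower. PRC1 alone was called higher, in siHDAC2 and siKDM1A, where 10.6% and 14.2% of all tested genes were higher. KIF23, the motor of the centralspindlin complex, fell in siCARM1 from 124 and 128 CPM to 98.7 and 106 (-0.30, SE 0.049, adjusted p 8.1e-06), a change of -0.25, under the fold minimum, without siCARM1 replicate 1. Its partner RACGAP1, the kinesin KIF20A and the RhoA activator ECT2 were not called, with log2 fold changes between -0.22 and 0.08. PRC1 was called higher in siHDAC2 (0.70, SE 0.221, adjusted p 0.0135) and siKDM1A (0.55, SE 0.225, adjusted p 0.049), on 41 to 87 counts a library. Its values were 2.24 and 2.07 CPM in siCTL, 2.55 and 2.86 in siCARM1, 3.27 and 2.51 in siCHD4, 3.81 and 3.24 in siHDAC2, 3.21 and 2.79 in siGATAD2A and 3.15 and 3.14 in siKDM1A. These calls are uncertain, since the gene shares most exon bases with another gene that had 257 to 431 counts. Without siCTL replicate 2 neither was called (adjusted p 0.101 and 0.207), the siHDAC2 call also ended without siHDAC2 replicate 1 (adjusted p 0.094), and the siKDM1A call ended without any single library other than siCARM1 replicate 1 or siHDAC2 replicate 2 (adjusted p 0.0501 to 0.207).

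FOXM1, the transcription factor that drives G2 and M genes, was called in opposite directions, and TOP2A was not called. FOXM1 (chr12:2966846-2986340 on GRCh37, minus strand) was at 224 and 219 CPM in siCTL, 187 and 164 in siCARM1, 276 and 270 in siCHD4, 212 and 220 in siHDAC2, 257 and 251 in siGATAD2A and 213 and 206 in siKDM1A. It fell in siCARM1 (-0.33, SE 0.048, adjusted p 1.24e-06) and rose in siCHD4 (0.30, SE 0.047, adjusted p 1.86e-06). In siGATAD2A it was at 0.20 (adjusted p 0.000753), under the fold minimum. Without siCARM1 replicate 2 the siCARM1 change was -0.25, also under the fold minimum.

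The direction of FOXM1 was set beside that of the members in siCHD4 and siCARM1, where it was called. In siCHD4, FOXM1 was higher while 14 members were lower (29.8%, near the 24.9% of all tested genes). In siCARM1, FOXM1 was itself 1 of the 8 lower members (17.0%, near the 14.5% of all tested genes). MYBL2, which encodes B-MYB, was at -0.20 in siCARM1 (under the fold minimum), 0.34 in siCHD4 (adjusted p 1.34e-08) and 0.52 in siGATAD2A (adjusted p 4.52e-12). Members with and without a CHR element in their window were also compared, as a description with no test. Only the letters TTTGAA were searched, so a member without a CHR element here is one without these letters. The counts of lower members are to be read against the shares of all tested genes that were lower. These were 24.9% in siCHD4, 14.5% in siCARM1, 18.2% in siGATAD2A, 9.00% in siHDAC2 and 11.5% in siKDM1A. In siCHD4 the 22 tested members with a CHR element had a median log2 fold change of -0.07 with 4 lower, and the 14 without one had -0.26 with 7 lower. In siCARM1 the medians were -0.09 with 4 lower and -0.12 with 1 lower. In siGATAD2A they were -0.08 with 2 lower and 0.04 with 1 lower. In siHDAC2 they were 0.05 and 0.04 with 1 lower in each set, and in siKDM1A -0.06 with 3 lower and -0.03 with none.

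Other genes of the same processes were taken from 6 further lists, with 112 genes tested. By the same rule 18 were lower and 9 higher in siCARM1, 24 and 10 in siCHD4, 6 and 4 in siHDAC2, 16 and 13 in siGATAD2A and 15 and 3 in siKDM1A. The lower genes made up 16.1%, 21.4%, 5.36%, 14.3% and 13.4% of the 112 in that order, against 14.5%, 24.9%, 9.00%, 18.2% and 11.5% of all tested genes. The higher ones made up 8.04%, 8.93%, 3.57%, 11.6% and 2.68%, against 14.9%, 24.0%, 10.6%, 15.7% and 14.2%. The counts of single lists below are to be read against the same shares of all genes. Of 27 other kinetochore and centromere genes, 6, 4, 2, 4 and 4 were lower in the same order and 1, 2, 1, 5 and 1 were higher. PMF1, a subunit of the MIS12 complex, fell in siCARM1 (-0.28), siCHD4 (-0.67) and siKDM1A (-0.36). OIP5, which helps to load CENPA, fell by 0.31 in siCARM1, 0.47 in siCHD4, 0.36 in siHDAC2 and 0.52 in siGATAD2A on the log2 scale. ZW10, a part of the RZZ complex at the kinetochore, was higher in each comparison, and the comparisons share siCTL. Its log2 fold changes were 0.93, 0.52, 0.78, 0.88 and 0.75 in the same order.

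Of 31 other spindle and cytokinesis genes, 12 were lower and 1 higher in siCHD4, and 8 were lower and 2 higher in siCARM1. In siHDAC2, siGATAD2A and siKDM1A, 2, 7 and 4 were lower and 1, 1 and none higher. KIFC1, a minus end directed kinesin, was at -0.38 in siCARM1, -0.36 in siCHD4 and -0.26 in siGATAD2A. KIF22, a kinesin on chromosome arms, was at -0.36, -0.31 and -0.37 in the same knockdowns, and CKAP2L, a spindle protein, was at -0.47 in siCHD4, -0.41 in siGATAD2A and -0.35 in siKDM1A. PLK1, the mitotic kinase, fell in siCARM1 (-0.39), siGATAD2A (-0.34) and siKDM1A (-0.29) and had 0.03 in siCHD4. All the values named as lower in this paragraph passed the adjusted p and the fold minimum, apart from that of PLK1 in siCHD4.

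Of 26 tested genes of the anaphase promoting complex and of cohesion, 2, 3, 0, 1 and 2 were lower in siCARM1, siCHD4, siHDAC2, siGATAD2A and siKDM1A, and 3, 4, 0, 2 and 0 were higher. ANAPC1, a large scaffold subunit, rose in siCARM1 (0.34), siCHD4 (0.39) and siGATAD2A (0.29). Of 8 condensin genes at most 2 were lower (siCHD4) and at most 1 higher in a comparison. Of 14 MuvB, DREAM, B-MYB and NF-Y genes, 1, 2, 1, 2 and 1 were lower and 3, 2, 2, 4 and 2 higher. The pocket protein genes RBL1 and RBL2 rose in siCARM1 (0.47 and 0.35), siHDAC2 (0.38 and 0.38) and siKDM1A (0.33 and 0.32), while RBL2 fell in siGATAD2A (-0.43). NFYC, an NF-Y subunit, was lower in each comparison, again against the same siCTL libraries. Its log2 fold changes were -0.33, -0.47, -0.31, -0.28 and -0.33 in the same order. Of 6 mitotic cyclin and kinase genes, 1 was lower in each of siCARM1, siCHD4, siHDAC2 and siGATAD2A and 3 in siKDM1A, and none was higher. CCNA2, cyclin A2, was lower in siCHD4 (-0.34), siGATAD2A (-0.34) and siKDM1A (-0.26), CDK1 was lower in siHDAC2 (-0.32), and CCNB1, cyclin B1, was called in none, with values between -0.21 and 0.21.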

How the data were processed

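RNA-seq libraries were made with a directional kit and sequenced in pairs at either of 2 companies, and which library went to which is not given in the sources used here, so company and group cannot be told apart. The deposited counts are fragments per gene by Ensembl identifier in 3 columns (unstranded and either strand), with no normalization by the authors, and the submitters' processing notes name hg19, CASAVA 1.4 and STAR 2.7.10. Such counts leave out fragments with several locations (5.44% to 10.6% of a library) and those on more than 1 gene (5.50% to 6.22%), which lowers genes with shared exons. Fragments on no gene were left out of library sizes.

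Reverse strand counts were used, since the other strand held 7.93% to 8.40% as many. Identifiers were matched to GENCODE release 44 on GRCh37 (96.7% matched). From these counts FPKM, CPM and log2 fold changes were calculated. Coding genes over 0.5 FPKM in the mean of at least 1 group were tested with edgeR 4.0.16 (quasi-likelihood test, TMM, 6 group means over 12 libraries, R 4.3.3), and p-values were Benjamini-Hochberg adjusted over genes within a comparison. SE is the log2 fold change divided by the root of the F statistic. The 10 direct differences between knockdowns were adjusted over genes and pairs. The code was tested on simulated data.

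The members and lists were chosen with earlier results of these data known. Values in every library are given for members called in 2 or more comparisons or in opposite directions, and for the 3 largest called changes each way per comparison. Other members were named where they complete a complex. Other list genes were named when called in 3 or more comparisons (at most 4 a list), with PLK1, MYBL2, CCNB1 and CDK1 named whatever their value. Replicate numbers did not pair the libraries (correlations -0.142 to 0.136 over 15 pairs of groups). Alternatives were DESeq2 1.42.0, its size factors, unstranded counts, other filters, only the groups compared, a replicate block, no fold minimum and leaving out each library. Of the marker genes of other lineages, 1 is not reported here.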

Additional observations from a re-analysis of the deposited data

Results flagged for a closer look

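For 3 members the calls in 2 knockdowns had opposite directions, and the libraries of each knockdown lay on opposite sides of siCTL. The pairs were picked for that difference, so it is given as a size with no test. CDCA5 was lower in siCHD4 than in siGATAD2A by a log2 difference of -0.69 (SE 0.048). NEDD1 was higher in siCARM1 than in siCHD4 by 0.80 (SE 0.075). FOXM1 was lower in siCARM1 than in siCHD4 by a log2 difference of -0.63 (SE 0.048).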

How the results depend on the processing

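None of the 46 called changes of members changed direction under the alternatives run. Without a fold minimum the members lower and higher were 20 and 6 in siCARM1, 23 and 7 in siCHD4, 6 and 7 in siHDAC2, 18 and 8 in siGATAD2A, and 14 lower in siKDM1A. With counts taken without regard to strand, 1 member was higher in siHDAC2 and the median of siCHD4 was -0.12, and with no filter on low genes that median was -0.12. Leaving out 1 library at a time, the lower members were 6 to 9 in siCARM1, 13 to 15 in siCHD4, 1 to 2 in siHDAC2, 4 to 6 in siGATAD2A and 3 to 5 in siKDM1A, the higher ones 1 to 4, 2 to 3, 1 to 5, 3 to 5 and 1 to 3, and those differing among knockdowns 27 to 31. The medians ran from -0.16 to -0.05, -0.14 to -0.10, -0.011 to 0.016, -0.11 to -0.066 and -0.095 to -0.054, so that of siHDAC2 has no settled sign. The cause was not tested.

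Replicate numbers are shared by label only. With the replicate block 45 of 46 calls were unchanged in direction and threshold, and PRC1 in siKDM1A lost its call (0.55, adjusted p 0.0505). DESeq2 kept 44 of 46, losing SPC25 in siCARM1 (adjusted p 0.0551) and PRC1 in siKDM1A (0.131). Leaving out siCTL replicate 2 ended 10 of 46 calls and siCTL replicate 1 ended 6. With 2 libraries a group, changes near 1.2-fold and genes of few counts, PRC1 above all, are the least certain.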
